A study of Bos taurus with 16 samples.

Results

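The response of bovine monocyte-derived macrophages (MDMs) to lipopolysaccharide (LPS) was measured as 1 effect common to taurine and indicine cattle, over all 16 RNA-seq libraries of the series. Each of 8 animals gave 1 unstimulated and 1 LPS treated library, so the response consisted of 8 pairs of libraries matched by animal. The taurine animals, which the study calls Holstein, carried the numbers 1, 3, 20 and 50, and the indicine animals, which it calls Gir, the numbers 2, 5, 6 and 7. Blood monocytes of these young animals, none older than a year, were grown into macrophages in culture for 11 days, and part of the cells of each animal then received 100 ng/ml LPS for 48 hours. The unstimulated cells of the same animals received no LPS. Of 27607 genes listed, 12968 reached 1 CPM, a count scaled to a library total of 1000000, in at least 4 libraries and were tested. Differentially expressed genes (DEGs) had to change by at least 1 on the log2 scale in either direction, at a false discovery rate (FDR) under 0.05.

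LPS, made of lipid and sugar chains, coats the outer membrane of gram-negative bacteria. Macrophages sense it through Toll-like receptor 4 with its partners CD14 and MD-2, and the receptor signals through NF-kB, MAP kinases and interferon regulatory factors. The first hours of the response are dominated by cytokine and chemokine genes, and later times also hold secondary targets, feedback inhibitors and changes of metabolism and differentiation. A single measurement after 48 hours therefore shows a late state of stimulated cells. In bulk libraries, fewer cells of a type and less RNA per cell cannot be told apart. The files list genes by Ensembl identifier only, no symbol could be paired with them here, and the labelled cell type could therefore not be checked against its defining markers.

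The 16 libraries held between 7362247 and 10296054 counts on genes, with a median of 8302642. Replicates were separate animals, and no pair of libraries within a treatment was as similar as repeated counts of 1 library would be, the lowest chi-square per degree of freedom being 19.05. For the median tested gene, differences between animals made up 73.2% of the sum of squares of log2 CPM, the common LPS effect 5.27% and the remainder 17%. The animal term has 7 degrees of freedom and the LPS term 1, so these shares are not comparable in size.

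LPS changed 709 of the 12968 genes tested, which was 5.47%. Of these DEGs, 236 (1.82% of the genes tested) were higher and 473 (3.65%) were lower after LPS, by edgeR's quasi-likelihood test with the animal as block and Benjamini-Hochberg adjustment. Without the limit on the fold change, 1972 genes (15.2%) had an FDR under 0.05, of which 874 were higher and 1098 lower. Lower genes exceeded higher genes under both criteria, but not with an FDR under 0.01 and the limit on the fold change, which gave 164 higher and 158 lower DEGs. The excess also depended on the scaling. With library totals in place of TMM factors there were 189 higher and 742 lower DEGs, so 20.3% of DEGs were higher instead of 33.3%, and the median log2 fold change of all tested genes moved from −0.04 to −0.19. Without the animal as block, the same test gave 96 higher and 32 lower DEGs, and the order of both numbers turned. At the threshold, the highest FDR among DEGs was 0.049998, and the lowest FDR among genes with a sufficient fold change that were not DEGs was 0.0504. The latter class held 441 genes, of which 34 were higher and 407 lower.

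The higher and the lower DEGs differed in size and in level of expression. The log2 fold change of the higher DEGs had a median of 1.57, quartiles of 1.2 and 2.14 and a maximum of 4.55. That of the lower DEGs had a median of −1.71, quartiles of −2.41 and −1.31 and a minimum of −6.92. A change of 4 or more on the log2 scale was found in 6 higher and 15 lower DEGs, and a change between 1 and 2 in 164 and 292. The median SE of the log2 fold change was 0.28 in higher and 0.39 in lower DEGs. Mean expression over the 16 libraries had a median of 22.4 CPM in higher DEGs and of 3.71 CPM in lower DEGs, beside 19.6 CPM in all genes tested. Among the 497 tested genes under 1 CPM, 8 were higher and 65 were lower DEGs. Genes of this class passed the filter only through the libraries in which they were highest, so the level of the DEGs depends in part on the filter. With 1 CPM required in 8 libraries there were 215 higher and 325 lower DEGs. Among the 86 tested genes at 1000 CPM or more, 9 (10.5%) were higher DEGs and 1 (1.16%) was a lower DEG.

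**Figure D1:**
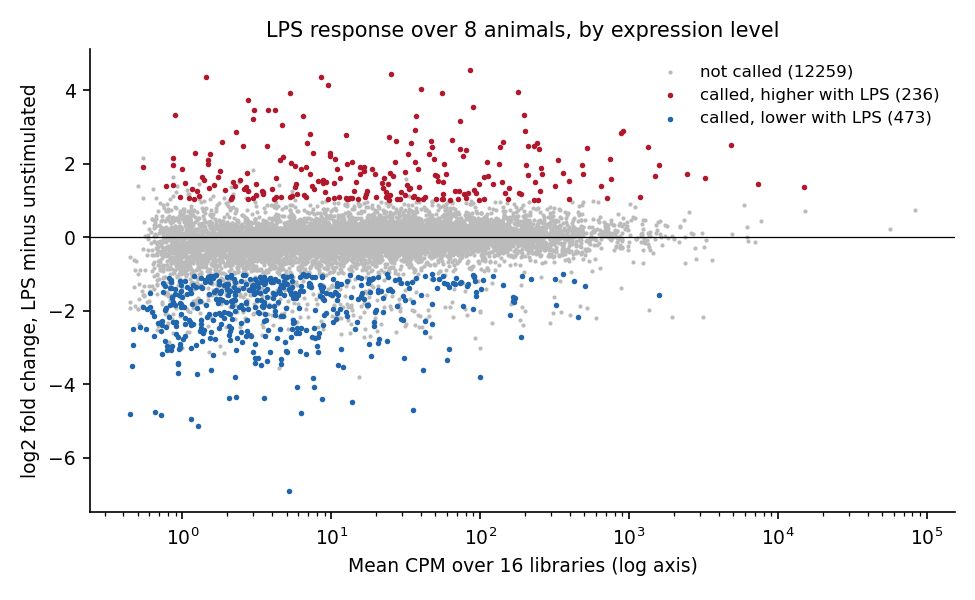
Log2 fold change of LPS treated relative to unstimulated MDMs (vertical axis) against mean CPM over 16 libraries (horizontal log axis), 1 point per tested gene, with the 236 higher DEGs in red and the 473 lower DEGs in blue. Lower DEGs lie mostly under 10 CPM, whereas 9 of the 10 DEGs at 1000 CPM or more are higher.

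The composition of the libraries changed with LPS. The higher DEGs together held between 1.83% and 4.21% of the counts of an unstimulated library (median 2.78%) and between 5.66% and 11.1% of an LPS treated one (median 7.95%), and the ranges did not overlap. This sum was carried by few genes, since 1 gene gave 25.3% and 10 genes gave 70.0% of it in LPS treated MDMs. The lower DEGs held between 0.944% and 2.86% without LPS (median 1.39%) and between 0.293% and 0.755% with LPS (median 0.488%). Because these genes were chosen from the same contrast, the shares describe the DEGs and are no test. Over all genes, the share of counts taken by the 100 most abundant genes of a library rose from 35.2% ± 2.69 to 40.1% ± 2.20 (SD, n = 8). It rose in 8 of 8 animals, with a mean difference of 4.92 ± 1.53 percentage points and an exact two-sided sign-flip permutation p of 0.0078, the smallest that 8 pairs allow. The 10 most abundant genes alone rose from 19.5% ± 3.20 to 24.7% ± 2.37, by 5.24 ± 1.44 percentage points with the same exact permutation p. The mean gain of these 10 genes was thus no smaller than that of the 100. Among the 100 genes of highest mean CPM, 10 were higher DEGs and 1 was a lower DEG. The most abundant gene of all rose in all 8 animals with a log2 fold change of 0.75 (SE 0.20, FDR 0.0331 by edgeR's quasi-likelihood test), which is under the limit for a DEG.

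The 2 genes with the largest rise and the 2 with the largest fall are given by identifier, out of 157 higher and 115 lower DEGs with the same direction in all 8 pairs and a mean of at least 5 CPM in the group where they were higher. Their values were chosen by this contrast and are a description. ENSBTAG00000037768 had 26.7, 0.369, 3.88 and 1.56 CPM in unstimulated MDMs of the taurine animals 1, 3, 20 and 50, and 309, 9.94, 31.0 and 45.8 CPM after LPS. In the indicine animals 2, 5, 6 and 7 it had 1.83, 6.10, 39.9 and 3.38 CPM without LPS and 204, 332, 243 and 115 CPM with LPS. It was higher after LPS within every animal, although the LPS treated cells of animals 3 and 20 stayed below the unstimulated cells of animal 6. The log2 fold change was 4.55 (SE 0.47, FDR 6.67e-04 by edgeR's quasi-likelihood test), with changes in single pairs between 2.76 and 6.80.

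ENSBTAG00000039504 had 0.798, 1.97, 0.114 and 1.56 CPM in unstimulated MDMs of animals 1, 3, 20 and 50, and 17.1, 28.9, 2.11 and 73.4 CPM after LPS. In animals 2, 5, 6 and 7 it had 4.58, 4.73, 0.815 and 0.121 CPM without LPS and 38.4, 222, 2.39 and 2.6 CPM with LPS. Every animal gained, and the LPS values spanned a wider range than the unstimulated ones, with animal 5 far above the rest. The log2 fold change was 4.44 (SE 0.39, FDR 4.51e-04 by edgeR's quasi-likelihood test), with changes in single pairs between 1.48 and 5.60. In the 4 indicine animals alone, neither this gene nor ENSBTAG00000037768 passed the threshold, although the changes stayed large. The log2 fold change there was 4.14 (FDR 0.0657) for ENSBTAG00000039504 and 5.11 (FDR 0.0582) for ENSBTAG00000037768.

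ENSBTAG00000003629 fell in every animal. It had 1.82, 20.7, 1.71 and 4.44 CPM in unstimulated MDMs of animals 1, 3, 20 and 50, and 0.128, 1.68, 0.117 and 0.0971 CPM after LPS. In animals 2, 5, 6 and 7 it had 23.7, 7.60, 6.11 and 5.44 CPM without LPS and 2.33, 0.112, 1.86 and 1.36 CPM with LPS. All 8 pairs were lower after LPS, with changes between −4.47 and −1.45 on the log2 scale. The fitted log2 fold change was −3.11 (SE 0.38, FDR 0.00112 by edgeR's quasi-likelihood test). The call was lost in the indicine animals alone (−2.72, FDR 0.091) and without the block (−3.05, FDR 0.0503). The values below 0.2 CPM rest on 1 count each.

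ENSBTAG00000050644 differed more between animals. It had 9.81, 0.369, 25.9 and 6.24 CPM in unstimulated MDMs of animals 1, 3, 20 and 50, and 0.514, 0.258, 7.15 and 2.82 CPM after LPS. In animals 2, 5, 6 and 7 it had 41.9, 0.249, 1.63 and 11.7 CPM without LPS, and after LPS it was at 0 counts in animals 2, 6 and 7 and at 0.112 CPM in animal 5. In animals 3 and 5 the unstimulated values rest on 3 and 2 counts, so the fall there was not detectable at this depth. The log2 fold change was −3.18 (SE 0.81, FDR 0.0274 by edgeR's quasi-likelihood test), and the call was lost without animal 1 (log2 fold change −3.05, FDR 0.0787) and without animal 7 (−2.81, FDR 0.0663). It was also lost without the block (−2.93, FDR 0.234), and with breed as covariate in its place (−3.55, FDR 0.124). In the taurine animals alone the log2 fold change was −1.77 with an FDR of 0.0756.

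**Figure D2:**
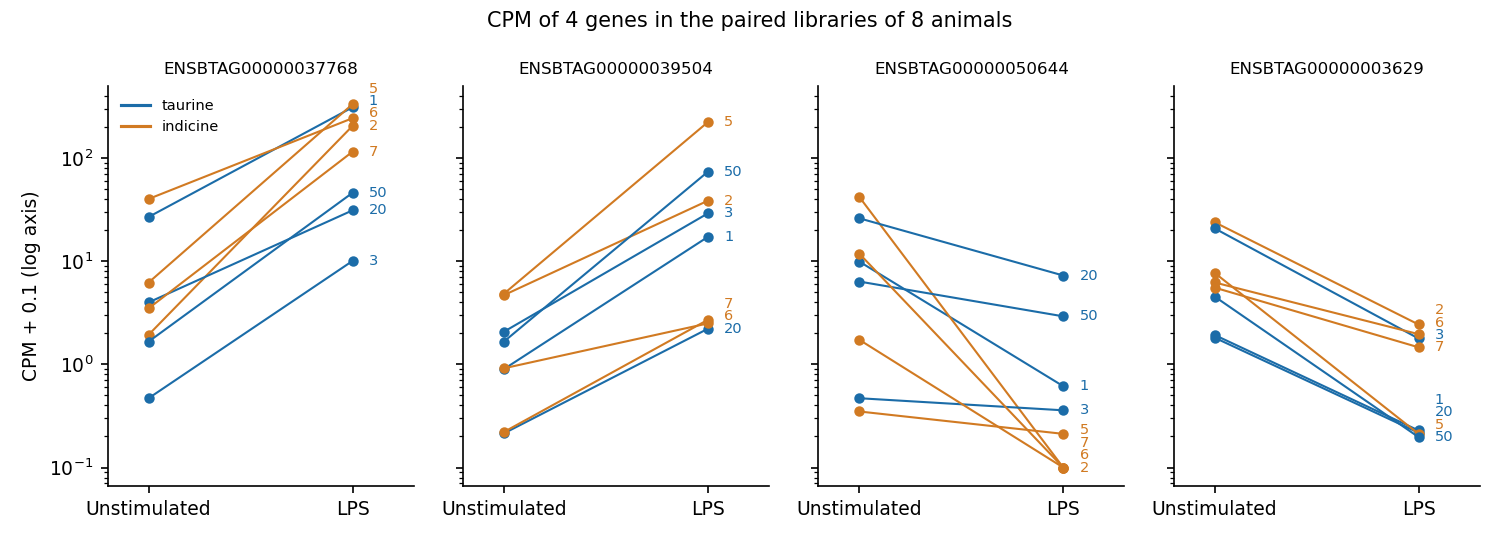
CPM plus 0.1 (vertical log axis) of 4 genes in the unstimulated and the LPS treated library of each animal, joined by a line per animal, with taurine animals in blue and indicine animals in orange and the animal number at the LPS value. All lines of ENSBTAG00000037768 and ENSBTAG00000039504 rise and all lines of ENSBTAG00000050644 and ENSBTAG00000003629 fall, the lines of ENSBTAG00000050644 being nearly flat in animals 3 and 5.

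The direction of the change was then counted in each pair. Of the 12968 genes tested, 698 (5.38%) were higher after LPS in all 8 animals and 633 (4.88%) were lower in all 8. These numbers shifted with the scaling, to 322 and 1724 with library totals and to 724 and 601 with DESeq2 size factors. With a change of at least 0.5 on the log2 scale required in every pair, 117 genes (0.902%) were higher and 57 (0.44%) were lower. Of these, 112 and 54 were DEGs. The higher DEGs were more uniform, since 179 of 236 rose in all 8 pairs and 222 rose in at least 7. Of the 473 lower DEGs, 167 fell in all 8 pairs and 314 fell in at least 7. A further 38 lower DEGs did not rise in any pair but had equal values in at least 1, where neither library held a count. These counts share the contrast that chose the DEGs and were not tested.

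**Figure D3:**
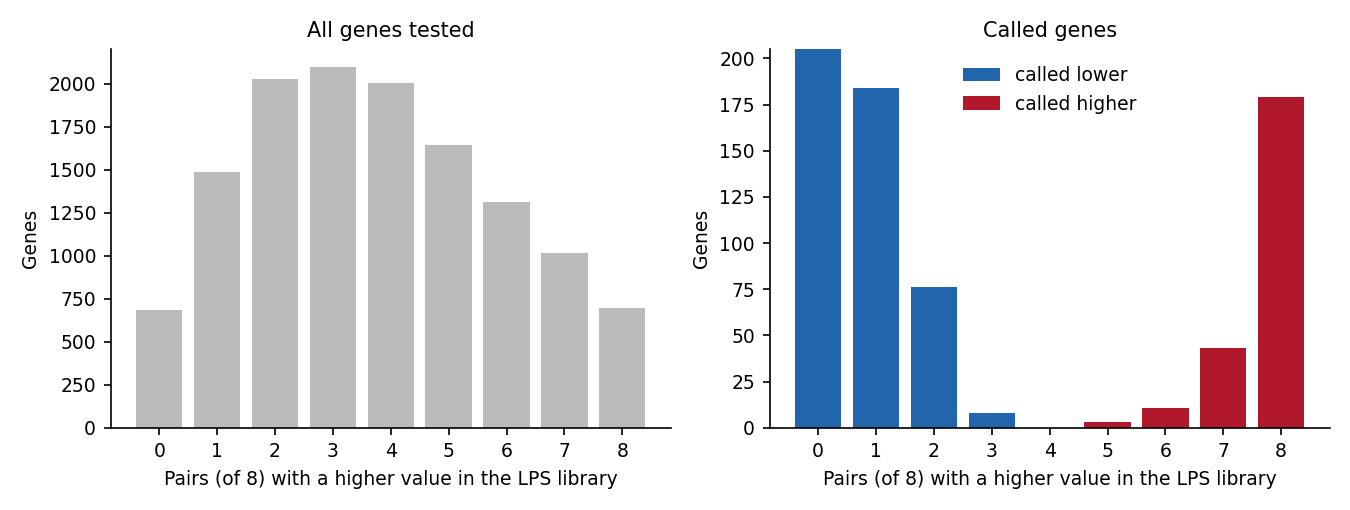
Number of genes (vertical axis) by the number of the 8 pairs in which the LPS treated library had the higher value (horizontal axis), for all 12968 genes tested (left) and for DEGs (right, lower in blue and higher in red). All tested genes peak at 3 pairs, the higher DEGs at 8 pairs with 179 genes, and the lower DEGs spread over 0, 1 and 2 pairs with 205, 184 and 76 genes.

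A measure of the direction that did not use the animal in question was obtained by calling DEGs in the other 7 animals. The genes called higher in the other 7 rose in nearly every animal left out. The share that was higher was 96.2% in animal 1, 93.2% in animal 3, 98.5% in animal 20, 97.8% in animal 50, 92.9% in animal 2, 97.1% in animal 5, 82.2% in animal 6 and 96.2% in animal 7. Between 44.1% and 51.0% of all genes tested were higher in the same animals. The median log2 change of these genes ranged from 0.57 in animal 6 to 2.22 in animal 50, so animal 6 responded in the same direction with a smaller change.

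The genes called lower in the other 7 animals were less uniform. They were lower in 93.3%, 96.8% and 97.0% of cases in the taurine animals 1, 20 and 50, and in 93.6% and 98.1% of cases in the indicine animals 2 and 7. In animal 6 the share was 64.3%, in animal 5 it was 59.6%, and in the taurine animal 3 it was 38.3%. Between 48.3% and 55.7% of all genes tested were lower in the 8 animals. In animal 3, 348 of the 632 genes called lower elsewhere were higher after LPS, and the median log2 change over all 632 genes was 0.18. In animal 5, 128 of 455 such genes were higher, and in animal 6, 107 of 468. Genes neither higher nor lower had equal values in both libraries and count as not lower in these shares. The median change was −0.30 in animal 5 and −0.34 in animal 6, and between −1.91 and −1.24 in the other 5. With library totals, the shares in animals 3, 5 and 6 were 40.6%, 58.8% and 71.3%. The difference between single animals was not tested.

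**Figure D4:**
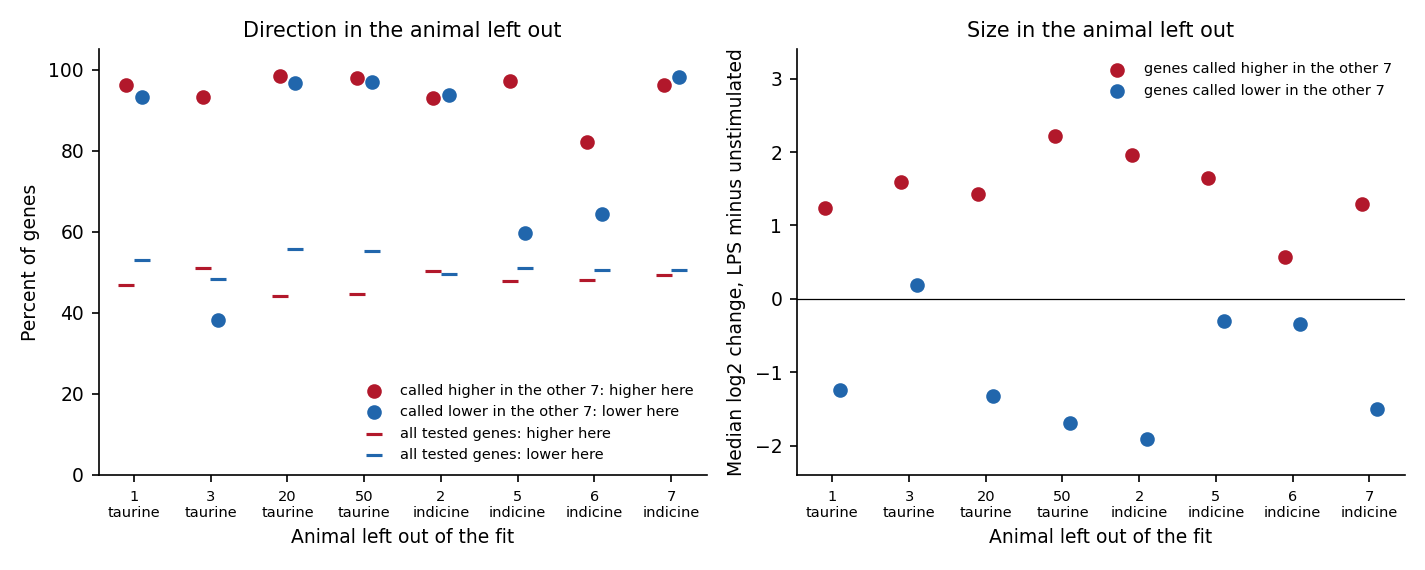
For each animal left out of the fit (horizontal axis, by number and breed), the percentage of genes called in the other 7 that moved the same way in that animal (left, dots) beside the percentage of all genes tested that moved that way (left, dashes), and the median log2 change of the called genes in that animal (right). Genes called higher (red) lie above 80% throughout, while genes called lower (blue) reach 38.3% in animal 3, 59.6% in animal 5 and 64.3% in animal 6.

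The number of DEGs moved with the animal left out. It was 463 (3.62% of the genes tested) without animal 1, 854 (6.62%) without animal 3, 442 (3.45%) without animal 20 and 416 (3.25%) without animal 50. It was 587 (4.58%) without animal 2, 665 (5.15%) without animal 5, 754 (5.84%) without animal 6 and 473 (3.67%) without animal 7. Higher DEGs numbered between 184 and 286 in these fits. Lower DEGs numbered 632 without animal 3, but 253 without animal 1, 261 without animal 7, 247 without animal 20 and 232 without animal 50, so they varied more than the higher DEGs.

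The unstimulated levels of the 473 lower DEGs of all 8 animals also differed between animals. These genes were chosen from the same libraries, a choice that favours high unstimulated levels, so the counts are a description. At least 1 CPM was reached in unstimulated MDMs by 261 of the 473 lower DEGs in animal 3, by 253 in animal 5 and by 230 in animal 6. In animals 1, 2, 7, 20 and 50 it was reached by 432, 456, 408, 447 and 457 of them. After LPS the number lay between 168 and 326 in all animals. The number of all genes with at least 1 CPM showed a related pattern. It was 11677 in unstimulated MDMs of animal 3, 11778 in animal 5 and 11797 in animal 6, and between 12449 and 12863 in the other 5. After LPS it lay between 11553 and 12153. On average it fell from 12327 ± 495 to 11853 ± 224 (SD, n = 8), a mean difference of −474 ± 433, and it was lower in 7 of 8 animals and higher in animal 3 (exact two-sided sign-flip permutation p = 0.0313). This p was 0.0625 when animal 1, 2, 7, 20 or 50 was left out. The part of the unstimulated level in the direction of the lower DEGs was not tested.

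**Figure D5:**
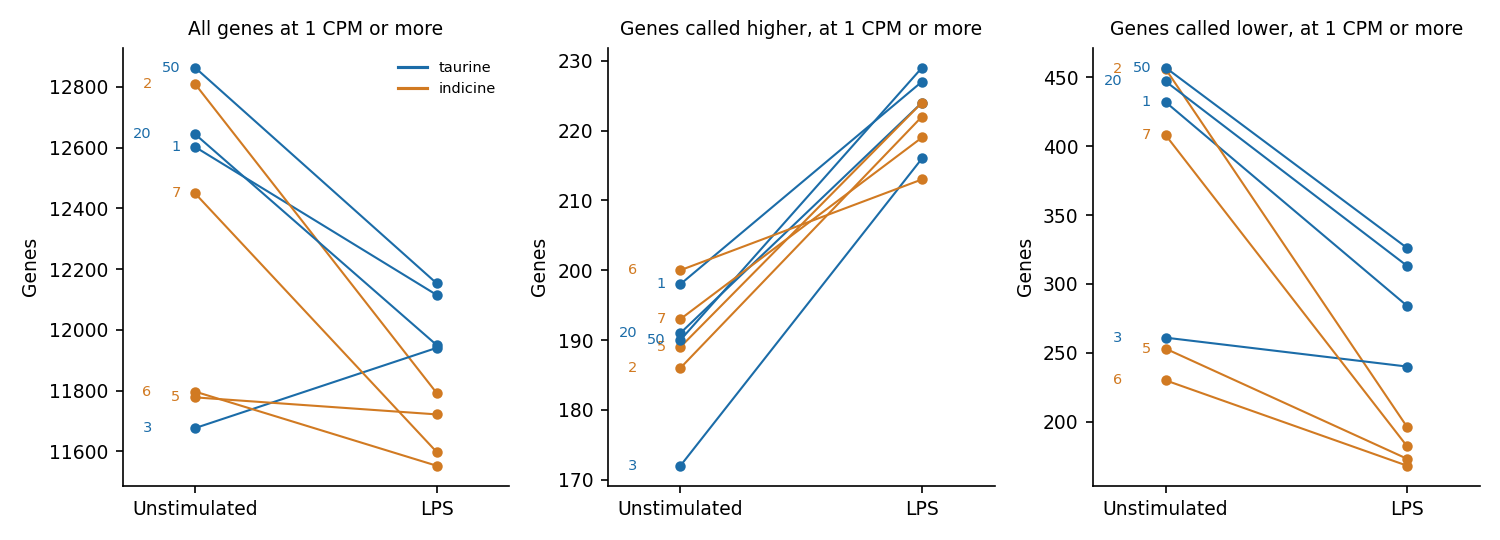
Number of genes with at least 1 CPM (vertical axes, which do not start at 0) in the unstimulated and the LPS treated library of each animal, joined by a line, for all genes (left), the 236 higher DEGs (middle) and the 473 lower DEGs (right), with taurine animals in blue, indicine animals in orange and the animal number at the unstimulated value. Animals 3, 5 and 6 start with 230 to 261 detected lower DEGs and the other 5 with 408 to 457.

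Animals also differed in the size of the change between their unstimulated and LPS treated libraries. Each animal gave 1 pair, so response and variation between cultures cannot be told apart here, and these differences were not tested. The median absolute log2 change over the genes tested was 0.24 in animal 1, 0.27 in animal 3, 0.28 in animal 20 and 0.35 in animal 50, and 0.49 in animal 2, 0.32 in animal 5, 0.24 in animal 6 and 0.25 in animal 7. Taken over genes (no independent replicates), the change in an animal correlated with the mean change of the other 7 with an r between 0.62 and 0.73 in animals 1, 2, 7, 20 and 50. It was 0.32 in animals 5 and 6 and 0.07 in animal 3. The share of counts held by the higher DEGs rose 1.34-fold in animal 6 and between 2.24-fold and 4.19-fold in the other 7. The share held by the lower DEGs was 0.596 times the unstimulated one in animal 6, 0.264 times in animal 3 and 0.326 times in animal 5, and between 0.235 and 0.327 times in the other 5. This sum is weighted to the more abundant of these genes, and by it animals 3 and 5 did not stand apart. The genes were chosen with these animals in the fit, which favours a fall in each, so the ratios are a description.

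Whether the shared response held in both breeds was looked at gene by gene. All 236 higher and all 473 lower DEGs had a mean change of the same sign in taurine and indicine animals, a property that choosing genes by a common effect favours. Of all 12968 genes tested, 8652 had the same sign in both breeds. The median log2 change of the higher DEGs was 1.62 in taurine and 1.38 in indicine MDMs, and that of the lower DEGs was −1.29 and −1.33. The difference of the response between the breeds passed the threshold for 0 genes (0.0%) by edgeR's quasi-likelihood test with the animal as block, with a lowest FDR of 0.178 and 1074 genes at an unadjusted p under 0.05. DESeq2's Wald test gave 13 such genes and edgeR's likelihood ratio test gave 114. A p that misses the threshold does not show equal responses. Unadjusted p under 0.05 was found in 18.2% of the higher and 23.7% of the lower DEGs, beside 8.28% of all genes tested. These included ENSBTAG00000050644, with a fitted difference of 6.27 on the log2 scale (taurine minus indicine, unadjusted p of 9.49e-04 and FDR of 0.479 by edgeR's quasi-likelihood test). This size depends on the prior count and is no bound, since 3 of the 4 indicine LPS libraries held 0 counts, and the changes in single indicine animals ran from −7.33 to −0.44.

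Fitted within a breed, LPS gave 472 DEGs in the 4 taurine animals (3.81% of the genes tested there), of which 221 were higher and 251 lower. In the 4 indicine animals it gave 26 DEGs (0.218%), of which 20 were higher and 6 lower. The numbers of DEGs do not measure the size of the response. The median absolute log2 change was 0.283 ± 0.046 in taurine and 0.321 ± 0.115 in indicine animals (SD, n = 4 each). The exact permutation p of this difference was 0.657. The indicine mean includes 0.486 in animal 2, beside 0.316, 0.238 and 0.246 in animals 5, 6 and 7. The median also counts changes of genes outside the shared response, so it does not decide whether the response was smaller in 1 breed. The libraries of an animal also deviated together less in indicine (r between 0.05 and 0.30 across genes) than in taurine animals (0.64 to 0.82), and the part of this in the number of DEGs was not tested. The genes found in 1 breed could be followed in the animals of the other. The 221 higher DEGs of the taurine animals were higher in 93.2% of cases in animal 2, 96.8% in animal 5, 86.0% in animal 6 and 93.7% in animal 7. The 251 lower DEGs were lower in 86.5%, 68.5%, 74.9% and 95.6% of cases in the same animals. Of all genes tested, between 48.1% and 50.4% were higher and between 49.5% and 51.1% were lower in these 4 animals. The 20 higher DEGs of the indicine animals rose in each of the 4 taurine animals. The 6 lower ones fell in animals 1, 3 and 50, and 5 of them fell in animal 20. Rises were therefore carried across breeds in more cases than falls in animals 2, 5 and 6, and in fewer in animal 7, a comparison that was not tested.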

How the data were processed

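The authors aligned reads of 16 stranded mRNA libraries with STAR 2.6.0c and counted them on Ensembl genes with HTSeq 0.10.0. Raw counts per gene, without normalization, are what was deposited. The paper names the build ARS-UCD1.2 and the processing notes of the labels name UMD3.1, and no coordinates were used. Whether counting used strand is not given in the sources used here. Rows that name no gene were removed. Among them, reads on no gene, ambiguous reads and reads not aligned uniquely held between 18.4% and 23.2% of their sum with the gene counts. The row for low alignment quality, equal in every library to the one for reads not aligned uniquely, was left out of this share, as were unaligned reads. Treatment, breed and animal came from the labels.

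The fit of the counts used edgeR 4.0.16 in R 4.3.3 (TMM, glmQLFit, glmQLFTest), with 1 term per animal and 1 for LPS. The pairing comes from the animal, and the deviations of its libraries from the means of breed and treatment correlated across genes with an r between 0.64 and 0.82 in the taurine animals, each of which matched its own number best, and between 0.05 and 0.30 in the indicine animals, none of which did. CPM of single libraries used library totals, and changes per pair used TMM and a prior count of 2. The SE is the log2 fold change divided by the root of the F statistic. The common biological coefficient of variation was 0.226. The difference between breeds was the LPS by breed term. Single values per library were tested by exact sign-flip permutation, and breeds by exact permutation with a smallest p of 0.0286. The scripts were tested on simulated data.

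Alternatives were DESeq2 1.42.0, voom of limma 3.58.1, other scalings, filters, thresholds and tests, no block, single breeds and each animal left out. Figures were drawn with matplotlib 3.10.9.

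The reference table, of ARS-UCD2.0, matched 0 of 27607 identifiers. The rule for naming genes therefore took the 2 largest rises and falls among DEGs with 1 direction in all pairs and a mean of at least 5 CPM in the higher group. Planned lists of macrophage pathways and cell type markers were not analysed, and no sequences are shown. Members and lists were chosen with earlier results of these data known. The precision of a CPM is limited by depth, since 1 count was worth about 0.1 CPM.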

Additional observations from a re-analysis of the deposited data

Results flagged for a closer look

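Dixon's rule for a value far from the others of its group was applied to 26 groups of 8 values, and 4 passed it. For normally distributed values, chance passes about 1 in 20 groups. The CPM of single genes were skewed, so this rate does not hold for them, and 4 of 26 is no measure of an excess. ENSBTAG00000039504 had 222 CPM in LPS treated MDMs of animal 5, and the next highest was animal 50 with 73.4 CPM. ENSBTAG00000050644 had 7.15 CPM in LPS treated MDMs of animal 20, and the next highest was animal 50 with 2.82 CPM. The median absolute log2 change over the genes tested was 0.486 in animal 2, and the next highest was 0.347 in animal 50. Of the genes called higher in the other 7 animals, 82.2% were higher in animal 6, and the next lowest share was 92.9% in animal 2.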

How the results depend on the processing

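Every fit kept both higher and lower DEGs. Without the replicate block, that is without pairing by animal, there were 128 DEGs (96 higher, 32 lower), and 211 (133 and 78) with breed as covariate instead. Taurine animals alone gave 472 (251 lower) and indicine animals alone 26 (20 higher, 6 lower). Without a limit on the fold change there were 1972 genes (874 and 1098), and with an FDR under 0.01 there were 322 DEGs, 164 higher and 158 lower, so the excess of lower DEGs was gone. Lower DEGs numbered 742 with library totals and 310 with filterByExpr. Leaving out 1 animal gave between 416 and 854 DEGs, 184 to 286 higher and 232 to 632 lower. For the direction in all 8 pairs, library totals gave 322 higher and 1724 lower genes, a change of at least 0.5 in each pair 117 and 57, and one of at least 1, chosen after seeing the data, 38 and 7. The difference between breeds gave 13 genes with DESeq2 and 114 genes by the likelihood ratio test. The difference in genes detected was −437 at 0.5 CPM (exact sign-flip permutation p = 0.0547), and leaving out 1 animal gave between −580 and −397 genes (exact p from 0.0156 to 0.0625). The cause of these shifts was not tested. Of the 4 named genes, those that rose were lost as DEGs only in indicine animals alone (1 of 21 alternatives each), ENSBTAG00000003629 in 2 of 21, and ENSBTAG00000050644 in 5 of 20, with changes between −3.55 and −1.77 and FDRs between 0.0663 and 0.234. No named gene changed direction in the fits that tested it, and ENSBTAG00000050644 did not pass the filter on low counts in indicine animals alone. The median absolute log2 change did not differ detectably between the breeds, with a difference of −0.04 (taurine minus indicine, exact permutation p = 0.657). The indicine mean includes the value of 0.486 in animal 2 flagged above, and this difference was not tested with single animals left out.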

Other observations

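The common LPS effect made up a median of 47.3% of the sum of squares of log2 CPM in higher DEGs and 23.5% in lower DEGs, and the animal, with 7 degrees of freedom against 1, made up 42.0% and 59.9%. These values are a description, since the DEGs were chosen from the same libraries.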
